A study of Mus musculus with 6 samples.

Results

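Interleukin 6 (Il6) and the pair of receptor chains that carry its signal (Il6ra and Il6st) were examined in the soleus, a calf muscle of mostly slow fibres that bears posture. The 3 genes were found by their symbols in the platform's annotation, and each has 1 probe, so that 3 of 203 named genes, and 3 of the 223 probes of the array, are described. All samples belong to 1 group of 6 animals: mice of the 129/SV background that lack tenascin-C, an extracellular matrix glycoprotein, whose muscle had been reloaded for 1 day. The array number, 1 to 6, follows the order of the sample records and carries no order of its own. Age, sex and the construction of the null allele are not given in the sources used here, and wild-type or unloaded muscle was not analysed here. The values are therefore levels within 1 condition, and none of them is a response to reloading or to the loss of tenascin-C. The labels call the 6 samples biological replicates. Each animal was measured once, so the spread between animals and that between arrays cannot be told apart.

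Interleukin 6 is a secreted cytokine that contracting and injured muscle releases, and that immune and endothelial cells also make. It binds the receptor chain Il6ra, which has a short cytoplasmic tail and does not signal alone. The complex then recruits Il6st, known as gp130, the chain shared by the whole cytokine family, which passes the signal to JAK kinases and STAT transcription factors. In muscle the pathway is known for satellite cell proliferation, fuel use during exercise and, when it stays on, wasting.

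The sequences just upstream of the annotated starts are shown because the ligand and the receptor chains differ there in their content of CpG dinucleotides, which are printed in capitals. They come from RefSeq (build GRCm38.p6), run 5′ to 3′ on the strand of the gene, and hold the 250 bases before each start. All 3 genes had an entry.
Il6, chr5:30012864-30013113, plus strand: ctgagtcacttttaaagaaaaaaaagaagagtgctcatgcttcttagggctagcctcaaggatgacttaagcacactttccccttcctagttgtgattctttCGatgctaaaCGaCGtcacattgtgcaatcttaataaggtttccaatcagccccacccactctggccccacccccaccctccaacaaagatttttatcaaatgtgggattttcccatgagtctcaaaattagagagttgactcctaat
Il6ra, chr3:89913197-89913446, minus strand: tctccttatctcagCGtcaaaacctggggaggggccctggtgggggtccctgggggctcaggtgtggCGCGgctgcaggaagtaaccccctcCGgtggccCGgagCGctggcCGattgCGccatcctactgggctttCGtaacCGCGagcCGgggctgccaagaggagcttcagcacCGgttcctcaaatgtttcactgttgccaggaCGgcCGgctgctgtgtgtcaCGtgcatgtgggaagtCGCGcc
Il6st, chr13:112463820-112464069, plus strand: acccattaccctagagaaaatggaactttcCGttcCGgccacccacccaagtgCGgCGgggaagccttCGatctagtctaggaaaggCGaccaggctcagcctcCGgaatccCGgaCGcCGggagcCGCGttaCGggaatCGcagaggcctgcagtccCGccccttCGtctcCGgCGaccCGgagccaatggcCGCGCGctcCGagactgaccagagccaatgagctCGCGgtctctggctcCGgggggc

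The Il6 window held 3 CpG and 42.8% G or C, the Il6ra window 18 CpG and 65.2%, and the Il6st window 26 CpG and 66.0%. Of 32851 mouse windows of the same length, 29.0% held fewer CpG than that of Il6, 78.3% fewer than that of Il6ra and 90.4% fewer than that of Il6st. The ligand thus has a CpG-poor start and both receptor chains have CpG-rich ones. This describes the reference genome, and the arrays do not bear on promoter activity.

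The arrays themselves set how the signals can be read. The deposited intensities are relative values that sum to between 0.995 and 0.999 per array over 221 probes. Probe 1M, which has no name, and probe 1O, for 28S ribosomal RNA, lie outside that sum and were left out. On arrays 1 and 2 these probes together gave 41.3 and 40.5, against 0.876 to 3.21 on arrays 3 to 6. Arrays 1 and 2 were also the most alike pair, with an SD of 0.15 for the log2 difference over 221 probes, against 0.47 to 1.43 for the other 14 pairs; 22 of their 221 values were equal. The lowest intensity of an array, used here as its floor, ran from 0.0006 to 0.003, and 19 and 20 probes reached 2 times the floor on arrays 1 and 2, against 37 to 104 on the others. The probe for Tnc, the deleted gene, gave 1.11 to 4.50 times the floor; no source used here says whether it lies in the deleted part, so it does not test the genotype. All 9 soleus fibre markers on the array (among them Myh7, Mb and Des) reached 2 times the floor on each of arrays 3 to 6, against 13.6% of all probes. On arrays 1 and 2 only 2 and 3 of the 9 did, and the highest of them gave 2.5 and 2.67 times. No leukocyte marker of the list was on the array.

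The 3 genes showed 3 different patterns over the floor, which was itself highest on arrays 1 and 2. Il6st, the signalling chain, was at 2.28 to 18.7 times the floor on arrays 3 to 6 and near it on arrays 1 and 2. Il6, the ligand, did the reverse, and stood clear of the floor on arrays 1 and 2 alone. Il6ra, the ligand-binding chain, stayed under 2 times the floor on all 6 arrays.

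Il6, the ligand, had an intensity of 0.0065 on array 1 and 0.0064 on array 2, and of 0.0019, 0.0014, 0.0014 and 0.0008 on the other 4. Read against the floor these were 2.17 and 2.13 times on the first pair and 1.06, 1.56, 1.17 and 1.33 times on the others. The lower ratio of arrays 1 and 2 lay above the highest of arrays 3 to 6, as it did for 23 of all 221 probes (10.4%); this split of the arrays was made after the values were seen. On arrays 3, 5 and 6 the Il6 intensity was 1, 2 and 2 units of the last decimal place above the floor, and on array 4 it was 5 units above it. Allowing for rounding of both values, the ratio on array 6 lay between 1.15 and 1.55 and that on array 3 between 1.00 and 1.11. Among the other 220 probes, 92.7% and 91.4% were lower than Il6 on arrays 1 and 2, and 1.36%, 50.9%, 10% and 18.2% on arrays 3 to 6.

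Il6ra, the ligand-binding chain, had intensities of 0.0033, 0.0038, 0.0029, 0.0011, 0.0018 and 0.0009, listed from array 1 to array 6. Over the floor this made 1.10, 1.27, 1.61, 1.22, 1.5 and 1.5 times, 1.37 ± 0.199 on average (SD, n = 6). No array stood out as high or low, and with rounding allowed for the ratio did not exceed 1.73 on any array. The probe's place among the others ran from 12.3% of them lower on array 1 to 74.1% on array 3. Il6ra thus could not be told from the many other probes near the floor, which is not the same as absence of the transcript.

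Il6st, the signalling chain, had an intensity of 0.0034 on array 1, 0.0037 on array 2, 0.0041 on array 3, 0.003 on array 4, and 0.0112 on both array 5 and array 6. Read against the floor these were 1.13, 1.23, 2.28, 3.33, 9.33 and 18.7 times. By this ratio arrays 5 and 6 were the high ones, arrays 3 and 4 lay between, and arrays 1 and 2 were indistinguishable from the bulk of probes. The equal intensities of arrays 5 and 6 give different ratios because the floor was 0.0012 on array 5 and 0.0006 on array 6. The floor was 0.003 on arrays 1 and 2, 0.0018 on array 3 and 0.0009 on array 4. On array 4 the Il6st intensity was thus below those of arrays 1 and 2, though its ratio was higher. On arrays 3 to 6 between 83.6% and 92.3% of the other probes were lower than Il6st, against 24.1% and 51.4% on arrays 1 and 2.

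**Figure D1:**
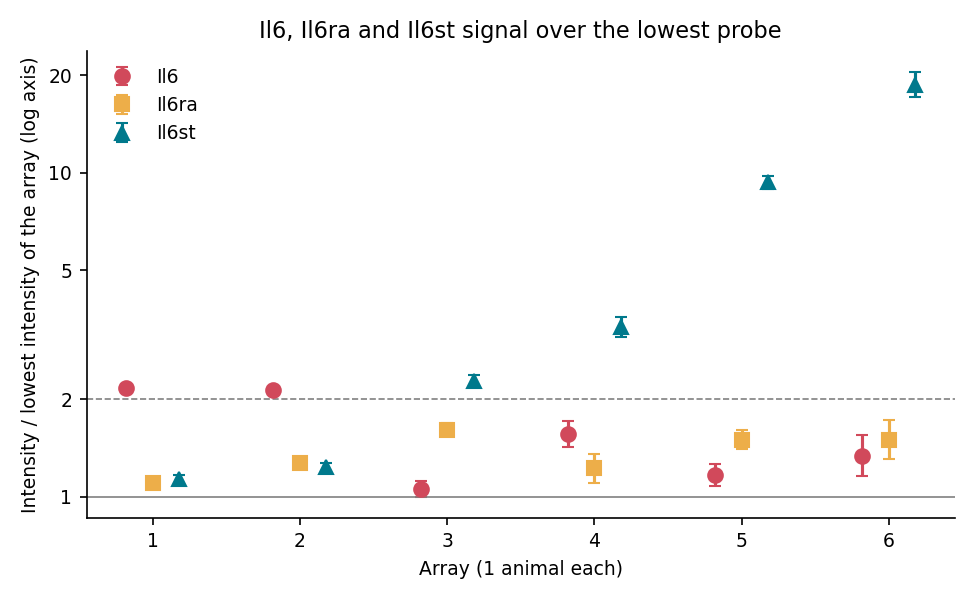
Intensity of Il6, Il6ra and Il6st divided by the lowest intensity of the same array (vertical log axis) for the 6 arrays, 1 animal each; bars give the range that rounding to 4 decimals allows and the dashed line marks 2 times the lowest. Il6 lies above the line on arrays 1 and 2 alone, Il6st on arrays 3 to 6 alone, where it reaches 18.7 times on array 6, and Il6ra on none.

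Set against all 221 probes, Il6st was 1 of 30 probes (13.6%) that reached 2 times the floor on each of arrays 3 to 6, and 1 of 21 (9.5%) that did so there and on neither of arrays 1 and 2. Il6 was 1 of 4 probes (1.81%) with the opposite pattern, at 2 times the floor on both arrays 1 and 2 and on none of the others. The remaining 3 were Lamb1 and Lama5, which are laminin chains, and Igfbp1, a secreted protein that binds the growth factors Igf1 and Igf2. Il6ra was among the 106 probes (48%) that reached it on none of arrays 3 to 6, as was Il6.

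**Figure D2:**
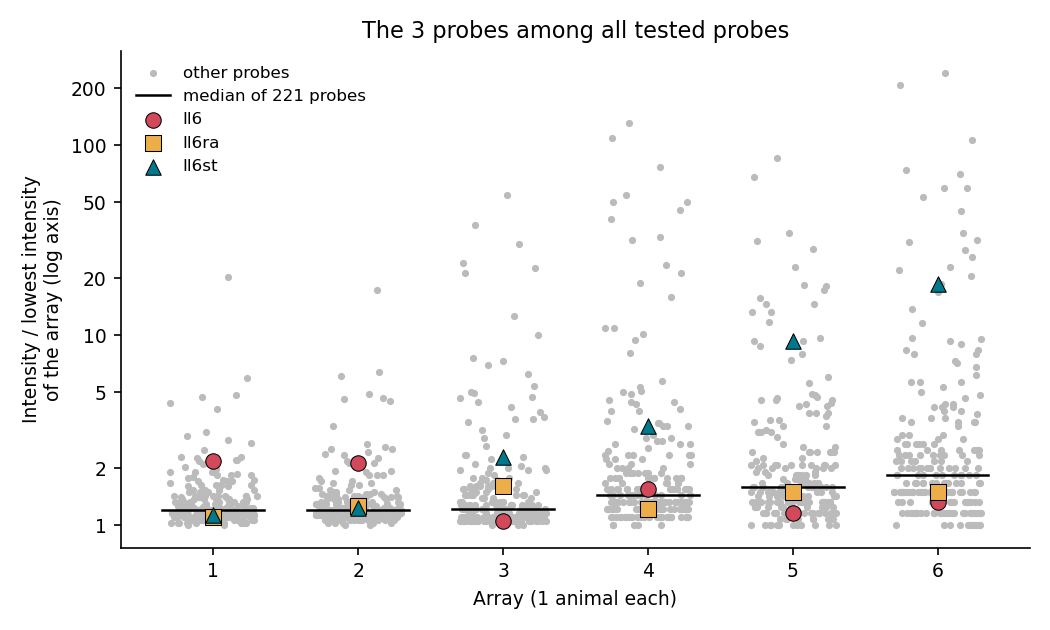
Intensity over the lowest intensity of the array (log axis) for all 221 probes tested (grey), with the array's median as a black bar and Il6, Il6ra and Il6st as coloured symbols. Il6st stands out of the bulk on arrays 3 to 6, Il6 on arrays 1 and 2, and Il6ra stays near the median, with log2 distances from it between -0.29 and 0.40.

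The signal of the Il6 probe was also set beside its place on the membrane. If the number in a probe's identifier is its row and the letter its column, which is an assumption, Il6 lies 5.10 steps from probe 1M, which gave 36.6 and 35.7 on arrays 1 and 2, 3.05 on array 4 and 0.570 to 1.02 on arrays 3, 5 and 6. All 12 other probes at that distance or nearer reached 2 times the floor on both arrays 1 and 2, against 4 of the 208 probes farther away (1.92%). Of all 221 probes 17 did so (7.69%). The Tnc probe, 3.16 steps from 1M, is 1 of the 12, with means of 4.28 times the floor on arrays 1 and 2 and 1.95 on arrays 3 to 6. The median of the 12 was 3.58 and 3.92 times the floor on arrays 1 and 2, 1.25 on array 3, 2.72 on array 4, and 1.71 and 2.17 on arrays 5 and 6; among the 208 it ran from 1.2 to 1.83. On arrays 3 to 6 in turn, 1M gave 0.570, 3.05, 1.02 and 0.872, and Il6 1.06, 1.56, 1.17 and 1.33 times the floor. Array 4 was the highest in both and array 3 the lowest, while arrays 5 and 6 came in opposite order.

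The probes nearest to Il6 in distance from 1M, within 0.3 steps, gave like signals on arrays 1 and 2. Lama5 gave 2.20 and 2.17 times the floor, Pdgfrb (a receptor for platelet-derived growth factor) 2.27 and 2.27, Eno2 (an enolase) 2.20 and 2.33, and Efnb1 (a ligand of Eph receptors) 1.83 and 1.93, with Il6 at 2.17 and 2.13. Eno2 alone of these 4 also exceeded 3 times the floor on each of arrays 3 to 6. They were chosen by distance, after the values were seen. What part the bright spot has in the Il6 and Tnc signals was not tested.

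The receptor probes lie far from 1M, Il6st at 18.4 steps and Il6ra at 18.9, and next to each other. On arrays 3 to 6 the 8 spots around Il6st reached at most 1.67, 2.78, 2.42 and 2.67 times the floor, against 2.28, 3.33, 9.33 and 18.7 for Il6st. The Il6st signal therefore exceeded that of every adjoining spot on these 4 arrays. Il6ra, which touches the Il6st spot, was at 1.5 times the floor on both arrays where Il6st was highest.

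**Figure D3:**
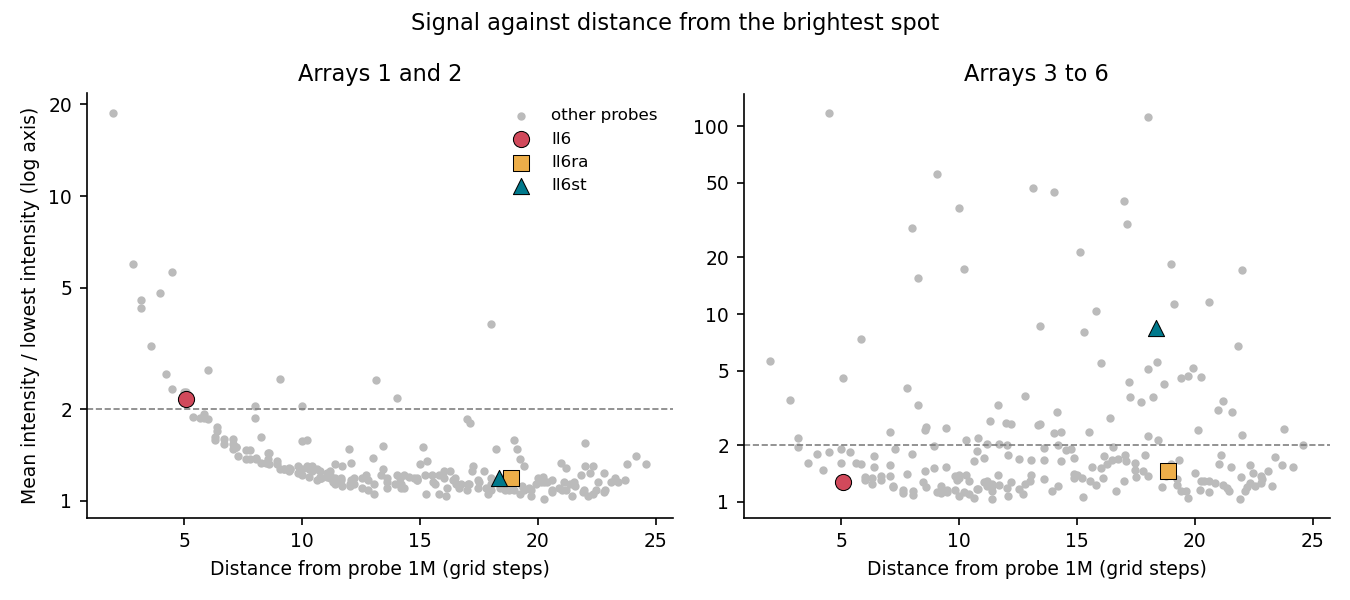
Mean intensity over the lowest intensity (log axis) against distance from probe 1M in grid steps, for arrays 1 and 2 (left) and arrays 3 to 6 (right), 1 point per probe. On arrays 1 and 2 the signal falls with distance, and Il6, at 5.10 steps, lies among its neighbours in distance; on arrays 3 to 6 Il6 lies near the floor and Il6st, at 18.4 steps, well above it.

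Whether a probe's mean signal stood off the middle of its array was tested with limma on log2 intensities centred on the array's median, adjusted over 221 probes. The mean is set against a standard error (SE) that combines the probe's own spread between arrays with the spread of all probes. This SE is the error of a mean, and is not the SD between arrays that is printed beside it. Il6st stood 1.33 ± 1.37 above the median (log2, SD, n = 6; SE 0.476; limma adjusted p = 0.0480) and above it on 5 of 6 arrays. By the same test 27 of 221 probes (12.2%) stood above the median and 15 (6.79%) below. The Il6st call was lost without array 3, 4, 5 or 6 (differences of 0.92 to 1.41, limma adjusted p = 0.0758 to 0.127). It was past the threshold in 10 of 17 settings, the main one among them. The 10 also include leaving out array 1 or 2, arrays 3 to 6 alone, and arrays 1 and 2 averaged. These settings give less weight to the arrays where Il6st was near the floor, so the tally does not measure how steady the call is.

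Il6 stood 0.11 ± 0.600 from the median (log2, SD, n = 6; limma adjusted p = 0.534), above it on 3 arrays and below it on 3. Il6ra stood -0.04 ± 0.252 from it (limma adjusted p = 0.717), above it on 2 arrays and below it on 4. Neither difference passed the test, and each was smaller than its SD between arrays, as that of Il6st also was.

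On arrays 3 to 6 alone, a choice made after the data were seen because of probes 1M and 1O, Il6st stood 2.0 ± 1.15 above the median (log2, SD, n = 4; limma adjusted p = 8.4e-06). The SE used, 0.402, draws on the spread of all probes as well as on that of Il6st. These are also the arrays on which Il6st was high and Il6 low over the floor, so the p-values here add no support to the tests over all 6. On these arrays 71 of 221 probes (32.1%) passed above the median and 64 (29%) below, so a call is common there. Il6 was among those below, at -0.25 ± 0.264 (limma adjusted p = 0.0374), a direction opposite to that over all 6 arrays. Il6ra stood at -0.05 ± 0.314 (limma adjusted p = 0.685).

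The ligand was then compared with its receptor chains within each array. These are differences between the signals of spots and not between amounts of transcript, since each probe binds with its own strength. Il6st minus Il6 was -0.93 and -0.79 on arrays 1 and 2, and 1.11, 1.10, 3.0 and 3.81 on arrays 3 to 6 (log2 of the intensity ratio). Il6 was thus the brighter spot on arrays 1 and 2 and Il6st on the other 4, where Il6 lay 1 to 5 units of the last decimal place above the floor, so the sizes there are imprecise. The mean of 1.22 ± 1.93 (SD, n = 6) did not pass an exact two-sided sign-flip permutation test (p = 0.188; 0.281 adjusted over 3 pairs).

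Between the receptor chains, Il6st minus Il6ra was 0.04 and -0.04 on arrays 1 and 2, and 0.50, 1.45, 2.64 and 3.64 on arrays 3 to 6. The chains were level on the first pair of arrays and Il6st was the brighter on each of the others. The mean of 1.37 ± 1.5 (SD, n = 6) did not pass either (exact permutation p = 0.0625; adjusted p = 0.188). The smallest p that 6 arrays allow is 0.0313.

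Il6ra minus Il6 was -0.98 and -0.75 on arrays 1 and 2, and 0.61, -0.35, 0.36 and 0.17 on arrays 3 to 6. The sign was mixed on arrays 3 to 6, and the mean of -0.16 ± 0.637 (SD, n = 6) was smaller than the spread (exact permutation p = 0.594; adjusted p = 0.594). On arrays 3 to 6 alone, too few for a test at the 0.05 threshold, the means were 2.25 ± 1.37 for Il6st minus Il6, 2.06 ± 1.37 for Il6st minus Il6ra and 0.20 ± 0.406 for Il6ra minus Il6 (SD, n = 4). After cyclic loess both Il6st differences passed, at 1.23 ± 1.06 and 1.44 ± 0.671 (SD, n = 6; exact permutation, adjusted p = 0.0469 each), while after quantile normalization neither did, at 0.50 ± 2.02 and 1.02 ± 0.965 (exact permutation, adjusted p = 0.531 and 0.188). Without array 6 Il6st minus Il6 was 0.70.

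**Figure D4:**
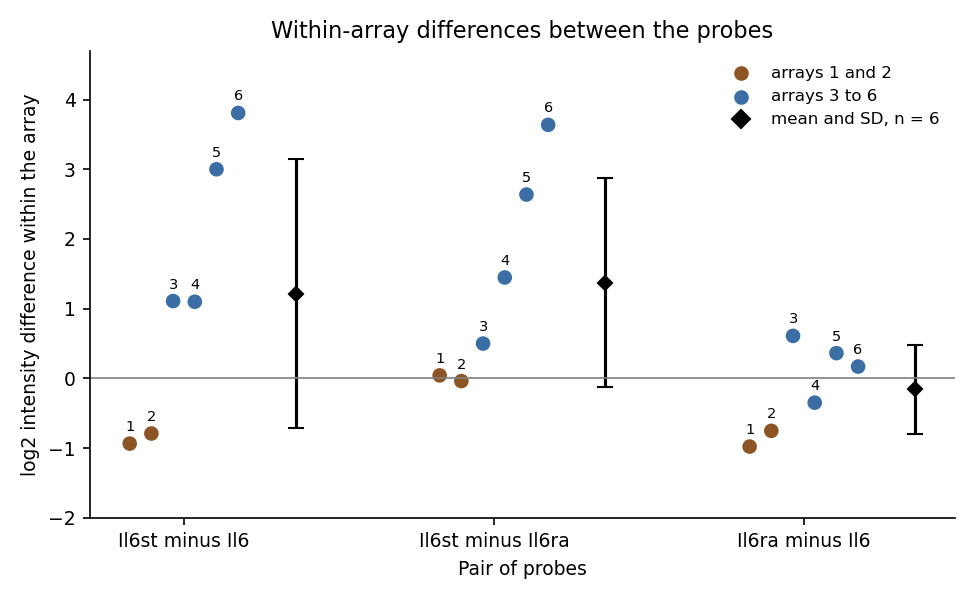
Difference of log2 intensities between pairs of probes within each array, 1 point per array with its number, brown for arrays 1 and 2 and blue for arrays 3 to 6; diamonds and bars give the mean and SD (n = 6). The differences with Il6st are at or below 0.04 on arrays 1 and 2 and between 0.50 and 3.81 on arrays 3 to 6.

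Over the 6 arrays the SD on the median-centred log2 scale was 1.37 for Il6st, 0.60 for Il6 and 0.25 for Il6ra. The order of Il6st and Il6 turned with the scaling: uncentred values gave 0.87 for Il6st and 1.25 for Il6, and quantile-normalized ones 0.92 and 1.14. On arrays 3 to 6 alone the SD of Il6 was 0.26. Probes of like signal had a prior SD of 1.13, 0.27 and 0.23. In limma's variance test none of the 3 varied more than probes of like signal (adjusted p = 0.925 for Il6st, 0.317 for Il6 and 0.925 for Il6ra). The test called 0 of 221 probes (0%), with 14 at an unadjusted limma p under 0.05, Il6 among them. Without array 1 or array 4 Il6 passed (SD 0.53 and 0.67, limma adjusted p = 0.0378 and 0.0130).

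The probes most like each gene over the 6 arrays were found by the root mean square difference of median-centred log2 profiles, with each probe's own mean removed, among 203 named probes. The measure is given as a description, with no test. Nearest to Il6 were Lamb1 (0.085), Igfbp1 (0.134) and Lama5 (0.176), against a median of 0.559 over all named probes. These are the same 3 probes that shared its pattern over the floor, and they lie 4.24, 6.0 and 5.0 steps from 1M. Nearest to Il6ra were Tfam (0.115), a mitochondrial transcription factor, Top3a (0.122), a topoisomerase, and Junb (0.136), with a median of 0.356. These reached at most 1.42, 1.33 and 1.33 times the floor, so the likeness is between probes near the floor.

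Nearest to Il6st were Igfbp6, a secreted protein that binds mainly Igf2 (0.319), Aldoc, an aldolase (0.400), and Cd36, a fatty acid transporter (0.414), with a median of 1.30. Igfbp6 gave 1.2, 1.23, 1.83, 3.44, 15.8 and 20.5 times the floor on arrays 1 to 6. Aldoc gave 1.2, 1.17, 1.61, 2.89, 4.33 and 11.7 times. Cd36 gave 1.07, 1.10, 1.61, 3.33, 4.83 and 9.0 times. All 3 were highest on arrays 5 and 6, as Il6st was, and lie 2.24 to 4.12 steps from it on the membrane. Il6ra came 124th and Il6 195th among the 203 named probes in likeness to Il6st, so the receptor chain and the ligand were not among the probes that followed it.

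**Figure D5:**
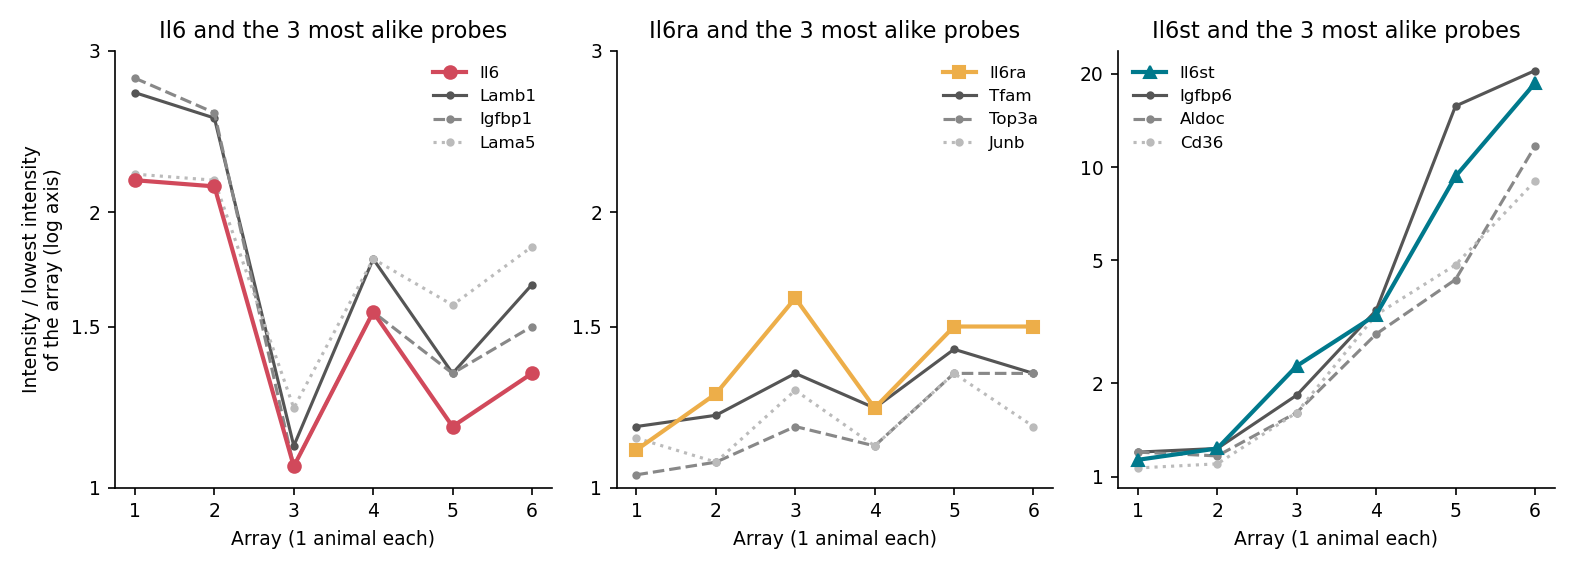
Intensity over the lowest intensity of the array (log axis) for Il6, Il6ra and Il6st (coloured) and the 3 named probes most like each (grey). Lines only join the values of 1 probe and show no course over the arrays. Il6 and its nearest probes are highest on arrays 1 and 2, Il6st and its nearest on arrays 5 and 6, and those of Il6ra stay at or below 1.61 times.

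Signals of endothelial and fat cell markers were set beside Il6st, since gp130 is made by many cell types. Of 5 endothelial markers on the array, 0 reached 2 times the floor on arrays 1 to 4, 3 did on array 5 and 2 on array 6. Among all probes tested, 8.6% to 29.0% did on arrays 1 to 4, 34.8% on array 5 and 47.1% on array 6. The summed signal of the 5 markers ran from 6.61 to 8.11 times the floor on arrays 1 to 4 and was 13.4 and 14.7 times on arrays 5 and 6. The median of all probes tested also rose, from 1.2 to 1.44 times on arrays 1 to 4 to 1.58 and 1.83 on arrays 5 and 6. Pecam1, an endothelial adhesion molecule, gave 4.58 and 4.33 times on arrays 5 and 6 and 1.2 to 1.89 on the others. Cdh5, an adhesion molecule of endothelial junctions, gave 3.75 and 5.33 times on arrays 5 and 6 and 1.17 to 1.56 on the others. Tek, the angiopoietin receptor and the lowest of the 5, gave 1.33 times on both and 1.11 to 1.43 on the others, and Flt1 and Kdr, receptors for vascular endothelial growth factor, gave at most 1.83 and 2.0 times on any array. Of 4 adipocyte markers listed, Fabp4 alone was on the array and gave 1.13, 1.07, 2.11, 4.33, 7.42 and 8.33 times. With no second marker beside it, it does not show which cells gave that signal. The 9 soleus fibre markers summed to 16.4 and 17.4 times the floor on arrays 1 and 2. Their sums were 146 and 352 times on arrays 3 and 4 and 176 and 467 times on arrays 5 and 6. What part such cells have in the Il6st signal was not tested, and in whole muscle fewer cells of a type and less RNA per cell cannot be told apart.

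Other genes of the pathway were few on this array. Of 8 ligands of the gp130 family Il6 alone was present, of 6 receptor chains Il6ra and Il6st, and of 26 genes of the signal relay, JAK kinases and STAT factors among them, 0. Of 24 immediate early genes and STAT3 targets 8 were present. None of the 8 reached 2 times the floor on each of arrays 3 to 6, against 13.6% of all probes, and 4 did so on none of them, against 48%. In limma's test 0 of the 8 stood off the array median, against 12.2% of all probes above it and 6.79% below. At an unadjusted limma p under 0.05, 4 of the 8 stood off it (1 above, 3 below), against 33% of all probes above and 23.5% below. Their median distance from it was -0.09 (log2), against 0.05 over all 221 probes.

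Jun, a subunit of the AP-1 transcription factor, was the highest of the 8, with 1.23, 1.13, 1.72, 2.33, 2.67 and 3.67 times the floor (0.48 ± 0.424 against the median, log2, SD, n = 6; limma adjusted p = 0.0524). Jund, its relative, gave 1.07 to 2.22 times. Junb, the lowest and a classical gp130 target, gave 1.07 to 1.33 times.

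Of 21 other inflammatory genes listed, 3 were on the array; the list leaves out others that it holds, such as Csf3 and Csf2rb2. Of these 3 genes, 0 reached 2 times the floor on each of arrays 3 to 6, against 13.6% of all probes. Il1b, a cytokine of macrophages, was the lowest of the 3, at 1.07 to 1.17 times on all 6 arrays, and stood below the median (-0.32 ± 0.211, log2, SD, n = 6; limma adjusted p = 0.0437). By that test 15 of 221 probes (6.79%) stood below the median. Tgfb1, a growth factor of repair, gave 1.23 to 2.17 times, and Nos2, the inducible nitric oxide synthase, 1.22 to 1.58 times.

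Fuel genes that are often studied beside interleukin 6 in muscle were represented by 12 probes. On every one of arrays 3 to 6, 2 of them reached 2 times the floor, and 4 never did there, against 13.6% and 48% of all probes; the 2 were Hadh, an enzyme of fat oxidation, and Lpl, a lipase of the capillary wall. In limma's test 0 stood above the median and 1 below, against 12.2% and 6.79% of all probes. At an unadjusted limma p under 0.05, 7 stood above and 2 below, against 33% and 23.5% of all probes. Slc2a4, the insulin-responsive glucose transporter, gave 4.23 ± 1.74 and Hadh 3.60 ± 1.44 times the floor (SD, n = 4, arrays 3 to 6). Lipe, the hormone-sensitive lipase, was the lowest and the 1 that stood below the median (-0.34 ± 0.190, log2, SD, n = 6; limma adjusted p = 0.0359).

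Among 12 probes for myogenic regulators and growth factors, 3 were at 2 times the floor or more throughout arrays 3 to 6, 4 never were, and 2 stood above the median, against 13.6%, 48% and 12.2% of all probes. The 3 were Igf2, Mef2c and Myf6. Those above the median were Igf2, an insulin-like growth factor (1.51 ± 1.24 above the median, log2, SD, n = 6; limma adjusted p = 0.0359), and Mef2c, a muscle transcription factor (1.40 ± 1.12; limma adjusted p = 0.0372). Fgf2, a growth factor of satellite cells, was the lowest, at 1.00 to 1.33 times.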

How the data were processed

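RNA of 6 soleus muscles was reverse transcribed with gene-specific primers and a radioactive nucleotide and hybridised singly, per the labels' protocols. The deposited values are linear intensities, 1 for each spot of each membrane, rounded to 4 decimals. The sums of about 1 per array point to division by the summed signal, which was read from the values; image analysis, background and scaling are not given in the sources used here. Depth has no equivalent here, and the 6 arrays limit the precision.

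Of 223 probes, 205 had 1 gene symbol and 18 none; 204 matched a RefSeq gene table (GRCm38.p6) by Entrez identifier. Probes 1M and 1O were left out, which left 221. Each value was divided by the array's lowest intensity. On log2 values, limma 3.58.1 (R 4.3.3) tested the difference from the array median (lmFit and eBayes, trended robust prior) and the variance (squeezeVar, upper-tail F test), with Benjamini-Hochberg adjustment at 0.05. Pairs of probes were compared with exact sign-flip permutation tests over 64 sign patterns. All were tried on simulated tables of independent normal values. Those tables had no floor, no rounding, no pair of like arrays and no fall of signal with distance. They therefore do not show how the tests behave under these features of the data.

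Named genes were the 3 members, the 3 probes most like each, and from each list the 2 highest and the lowest probe; others were chosen after their values were seen. The members and lists were chosen with earlier results of these data known. Alternatives covered normalization, centring, background, prior, pseudocount (0.0006), filters, thresholds and leaving out arrays.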

Additional observations from a re-analysis of the deposited data

How the results depend on the processing

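Of 169 alternative values, 122 were counted as unchanged. These include small differences whose sign turned, such as Il6ra minus Il6 (-0.16 over all 6 arrays, 0.20 on arrays 3 to 6), and values given with no test. No paired analysis was possible because there is 1 group. Cyclic loess brought Il6st minus Il6 to 1.23 and Il6st minus Il6ra to 1.44 (exact permutation, adjusted p = 0.0469 each); the cause was not tested. Quantile normalization left Il6st minus Il6 at 0.50 (adjusted permutation p = 0.531), and leaving out each array gave 0.70 to 1.65. Il6st against the median lost its call after quantile normalization (1.02, limma adjusted p = 0.0623), without trend and robust prior (1.33, 0.0877) and with the pseudocount (1.11, 0.0505), and ran from 0.92 to 1.61 when each array was left out. Il6 passed above the lower quartile (0.31, limma adjusted p = 0.0335), since that centre lies lower, and was reversed at -0.25 on arrays 3 to 6. The SD of Il6, 0.60, ran from 0.53 to 0.67 when each array was left out, and was 1.25 uncentred, 1.14 after quantile normalization and 0.26 on arrays 3 to 6. At 3 times the floor Il6 passed on 0 arrays, and at 1.5 times Il6ra passed on 3.

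Counts moved more. Probes above the median, 27 in all, were 71 after cyclic loess, 109 with lower-quartile centring, 2 without trend and robust prior, 57 with 1M and 1O kept, 71 on arrays 3 to 6, 45 with the floor subtracted, 55 with arrays 1 and 2 averaged, and 0 to 59 when each array was left out. Probes below, 15, were 73, 3, 0, 33, 64, 35 and 46 under the same settings, 36 after quantile normalization, 31 among probes above the floor on all arrays, 29 with the pseudocount, and 0 to 49 when each array was left out. The counts of 0 arose without array 4 or 5 (66 and 56 above, 29 and 32 below at an unadjusted limma p under 0.05) and, below, without trend and robust prior (34). Hypervariable probes, 0 here, were 4 uncentred, 1 after cyclic loess and 0 to 2 when each array was left out. Near the floor 1 unit of the last decimal place is 3.33% to 16.7% of the lowest intensity, which limits Il6 on arrays 3 to 6 and Il6ra.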

Other observations

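With the array's lowest intensity subtracted, Il6st held 0.120% and 0.210% of the remaining signal of arrays 1 and 2, 0.383% and 0.263% on arrays 3 and 4, and 1.36% and 1.22% on arrays 5 and 6. Il6 held 1.05% and 1.02% on arrays 1 and 2 and 0.0167% to 0.0625% on arrays 3 to 6, and Il6ra 0.0250% to 0.240% on all 6. By this measure Il6 ranked 17th and 19th of 221 on arrays 1 and 2, and Il6st 17th and 18th on arrays 5 and 6.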
